A study of Homo sapiens with 11 samples.

Results

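FLT3, KIT, CSF1R and PDGFRB are receptors of class III of the receptor tyrosine kinases, and AXL, MERTK and TYRO3 make up the TAM receptors. Here their mRNA was followed in MOLM-13 cells together with that of some ligands. These were GAS6 (a ligand of the TAM receptors), CSF1 (a ligand of CSF1R) and FLT3LG (the ligand of FLT3). The members were picked by symbol, as the rows of the joined count table that carry these names, which gave 10 of 38557 annotated genes. MOLM-13, a cell line from a human acute myeloid leukemia, has a KMT2A fusion and an internal tandem duplication in FLT3, and gene-level counts do not separate the alleles. All libraries came from cells cultured for 72 h, either with DMSO (the solvent control, 4 libraries), with MI-503 at 1 µM (4 libraries), or with MI-503 at 1 µM plus PR-957 at 100 nM (3 libraries, numbered 1, 2 and 4). MI-503 blocks the binding of Menin to KMT2A, and PR-957 blocks the immunoproteasome subunit PSMB8. The group with both agents is called the combination. PR-957 without MI-503 was not analysed here, so its addition was compared only between MI-503 and the combination. All libraries come from 1 cell line, and the labels number the replicates without saying whether they were separate cultures, so the p-values measure the spread between these libraries, which may be technical.

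Receptors of class III carry extracellular immunoglobulin domains and a split kinase domain. Binding of a ligand brings 2 receptor chains together, the kinases phosphorylate each other's tails, and adaptors such as GRB2 and SHC1 connect them to RAS, PI3K and STAT5 signaling. FLT3 is found on early progenitors and on most acute myeloid leukemia cells, KIT on stem cells, early progenitors and mast cells, CSF1R on monocytes and macrophages, and PDGFRB mainly on mesenchymal cells such as pericytes and fibroblasts. TAM receptors bind GAS6, and some of them also bind protein S (the product of PROS1). These ligands bridge the receptors to phosphatidylserine on dying cells. TAM receptors are known for the uptake of such cells and for the damping of inflammatory signaling.

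The genes lie apart from each other in hg38, except for CSF1R and PDGFRB. CSF1R (chr5:150053291-150113372, minus strand) and PDGFRB (chr5:150113839-150155845, minus strand) are neighbors, with 466 bases between their annotated ends. FLT3 lies at chr13:28003274-28100587 (minus strand), KIT at chr4:54657928-54740715 (plus strand) and AXL at chr19:41219223-41261767 (plus strand). MERTK lies at chr2:111898607-112029561 (plus strand) and TYRO3 at chr15:41559212-41583589 (plus strand). The ligand genes are GAS6 at chr13:113820549-113864076 (minus strand), CSF1 at chr1:109910506-109930992 (plus strand) and FLT3LG at chr19:49474172-49487037 (plus strand). Of the exon bases of GAS6, 4.59% are shared with its antisense gene GAS6-AS1. Fragments were counted without regard to strand, so reads from these bases cannot be assigned to either gene, and the level of GAS6 rests on the other bases. The exons of the other 9 members overlap no other gene.

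The called changes against DMSO were largest in CSF1R and ran against those of FLT3. The sequences just before the start sites of both genes are shown so that the letters of these promoters can be read beside the values. They are the 250 bases upstream of a RefSeq start on GRCh38.p14, in the direction of transcription. RefSeq gives CSF1R a start far upstream, which borders PDGFRB, and a start far inside the gene, which is known as its myeloid promoter. Capitals mark exact matches, on either strand, to GAGGAA (a core of the sites of PU.1, the product of SPI1), TGTGGT (a core of RUNX sites) or TGACAG (a core of MEIS sites).
CSF1R, inner start, chr5:150086555-150086804, minus strand: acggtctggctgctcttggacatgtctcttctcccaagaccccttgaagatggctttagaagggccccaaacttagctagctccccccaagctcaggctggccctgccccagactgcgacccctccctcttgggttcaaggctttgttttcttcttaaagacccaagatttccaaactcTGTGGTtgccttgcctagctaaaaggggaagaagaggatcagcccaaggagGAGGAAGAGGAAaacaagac
CSF1R, outer start, chr5:150113366-150113615, minus strand: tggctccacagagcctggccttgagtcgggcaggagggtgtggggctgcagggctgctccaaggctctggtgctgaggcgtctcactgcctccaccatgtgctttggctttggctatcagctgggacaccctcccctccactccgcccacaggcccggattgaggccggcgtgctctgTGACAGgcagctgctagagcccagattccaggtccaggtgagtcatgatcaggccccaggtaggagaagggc
FLT3, chr13:28100577-28100826, minus strand: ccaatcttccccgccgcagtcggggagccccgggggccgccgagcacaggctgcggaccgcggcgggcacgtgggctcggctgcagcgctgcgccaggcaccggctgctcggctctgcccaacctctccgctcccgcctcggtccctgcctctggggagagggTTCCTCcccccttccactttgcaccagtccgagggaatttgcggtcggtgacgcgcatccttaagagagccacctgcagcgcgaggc
The inner CSF1R sequence held 2 matches to GAGGAA and 1 to TGTGGT, the outer one held 1 to TGACAG, and that of FLT3 held 1 to GAGGAA. Among 35116 RefSeq promoters of the same length, 23.6% held GAGGAA, 11% held TGTGGT and 13% held TGACAG at least once. A match to so few letters is a description of the sequence only. The counts sum over all exons of a gene, so transcripts from the 2 CSF1R starts were not told apart.

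Libraries held 18.9 to 41.2 M counted fragments. Levels are given as CPM (counts scaled to the TMM-adjusted library total, in parts per 1000000) within a gene and, where genes are set side by side, as FPKM (CPM per kilobase of annotated exon). The 6 genes listed as markers of myeloid leukemia cells (CD33, SPI1, PTPRC, CSF3R, LYZ and MPO) were all measured, with a summed level of 652 to 726 CPM in DMSO, 1204 to 1240 CPM in MI-503 and 1315 to 3349 CPM in the combination. The rise of the sum from MI-503 to the combination came mainly from LYZ, which averaged 376 and 1641 CPM there. Between these groups edgeR called LYZ and SPI1 higher, MPO lower (216 and 130 CPM), and did not call CD33, PTPRC or CSF3R. The markers of T cells, of erythroid cells, and of endothelium and epithelium each summed to at most 0.184 CPM in any library. Of the B cell markers, MS4A1 had no count and CD79A lay between 0.335 and 1.73 CPM. Combination replicate 1, the deepest library, stood apart from the other 2 of its group. It held 599 CPM of LYZ (the lysozyme of monocytes and granulocytes), against 1812 and 2513 CPM in replicates 2 and 4, and the results on the members and lists that it decides are given with and without it.

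On the FPKM scale the order of the levels was the same in the 3 groups, from GAS6 and FLT3 at the top through CSF1R, AXL, FLT3LG, TYRO3, CSF1, KIT and PDGFRB to MERTK. In DMSO, GAS6 averaged 88.6 FPKM and FLT3 77.4 FPKM, above 95.9% and 95.2% of the tested genes. CSF1R followed at 1.52 FPKM, AXL at 1.32, FLT3LG at 1.28 and TYRO3 at 0.989 FPKM. The place of TYRO3 below AXL rests on the annotated exon bases, 10425 for TYRO3 and 4876 for AXL. In CPM, TYRO3 averaged 10.3 and AXL 6.45 in DMSO. CSF1 (0.118 FPKM), KIT (0.0810 FPKM) and PDGFRB (0.0488 FPKM) were near the limit of detection, and MERTK averaged 0.00530 FPKM. In the DMSO libraries the ranges overlapped between GAS6 and FLT3, CSF1R and AXL, AXL and FLT3LG, CSF1 and KIT, and KIT and PDGFRB, so these neighbors in the order did not differ beyond their spread over libraries. In MI-503, GAS6 and FLT3 no longer overlapped, nor did CSF1R and AXL, and CSF1R stood at 8.15 FPKM against 1.98 FPKM for AXL. Only FLT3LG and TYRO3, and CSF1 and KIT, overlapped there. In the combination every neighbor from AXL downwards overlapped the next except TYRO3 and CSF1.

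**Figure D1:**
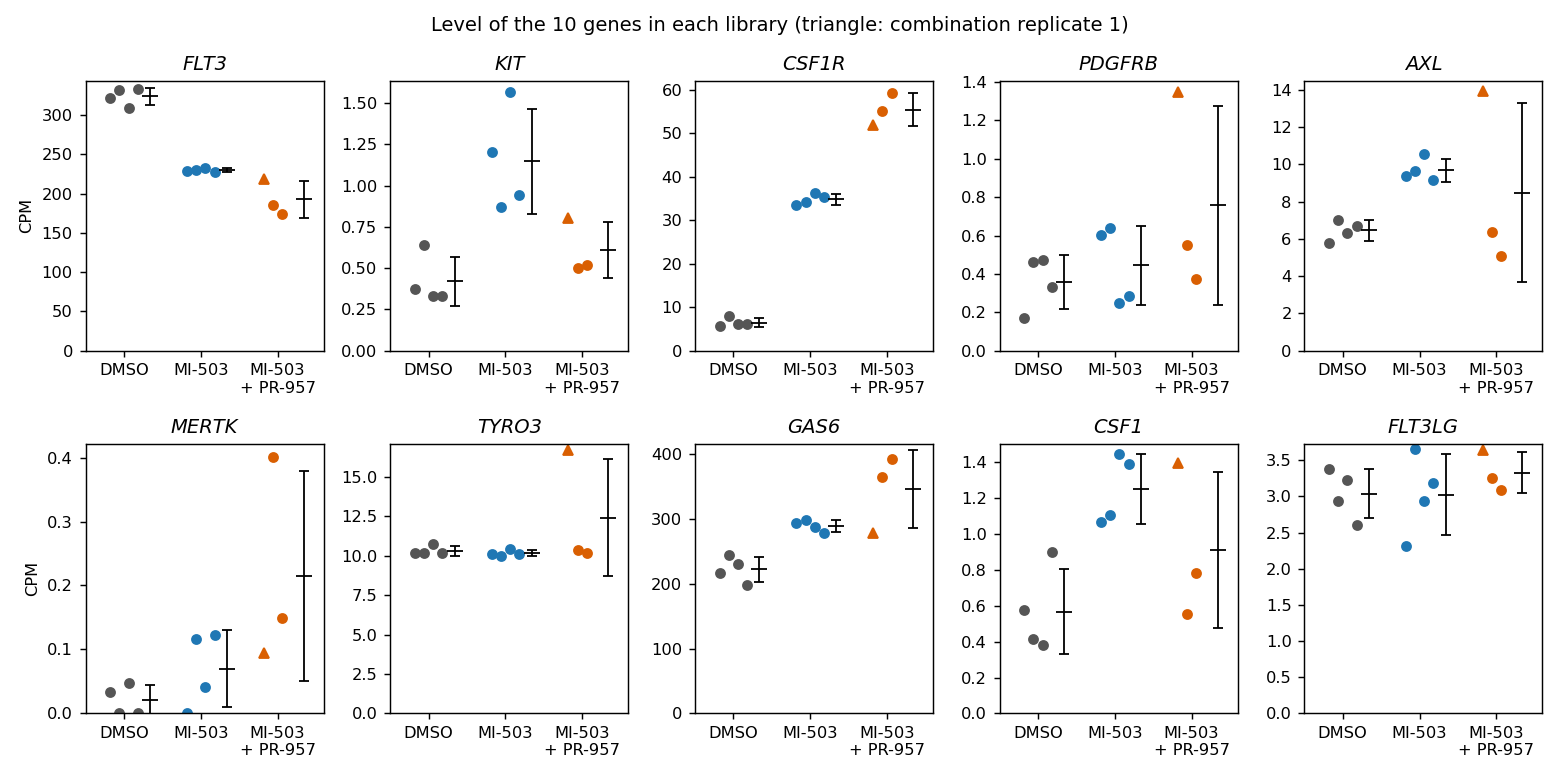
Level of each of the 10 genes in each of the 11 libraries, as CPM on axes scaled for each gene, with points for libraries (a triangle for combination replicate 1) and the group mean ± SD at the right of each group. FLT3 and CSF1R separate all 3 groups in opposite directions, and AXL, TYRO3 and PDGFRB each have 1 high combination library, replicate 1.

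FLT3, the receptor of FLT3LG on early progenitors, fell with MI-503 and was lower still in the combination. The 4 DMSO libraries held 321.9, 332.3, 308.9 and 333.0 CPM, and the MI-503 libraries 228.3, 230.5, 233.4 and 227.7 CPM. In the combination FLT3 stood at 219.2, 186.0 and 173.8 CPM in replicates 1, 2 and 4. No library of one group reached the range of another, and combination replicate 1 lay nearest to MI-503. The log2 fold change was -0.49 (SE 0.06, edgeR adjusted p = 1.58e-06) for MI-503 against DMSO and -0.75 (SE 0.06, adjusted p = 1.31e-08) for the combination against DMSO. Between the combination and MI-503 it was -0.25 (SE 0.06, adjusted p = 0.00274). FLT3 nevertheless kept its place high in the transcriptome, at 55.0 FPKM in MI-503 and 46.1 FPKM in the combination, above 93.5% and 92.7% of the tested genes. In bulk RNA, fewer cells with a transcript and less of it per cell cannot be told apart.

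CSF1R, the receptor of macrophage colony-stimulating factor, moved the other way and by more. It held 5.74, 7.95, 6.07 and 6.17 CPM in DMSO, 33.5, 34.1, 36.4 and 35.5 CPM in MI-503, and 52.0, 55.2 and 59.4 CPM in the combination. The groups were fully separated, and the spread within each was small beside the steps between them. CSF1R rose 5.40-fold with MI-503 over DMSO (log2 fold change 2.43, SE 0.08, edgeR adjusted p = 2.26e-12), and the combination stood 8.59-fold above DMSO (3.10, SE 0.08, adjusted p = 4.84e-14) and 1.59-fold above MI-503 (0.67, SE 0.07, adjusted p = 1.06e-06). With MI-503, CSF1R had the 54th highest log2 fold change of 14683 tested genes, and 0.422% of genes changed by more in either direction. In the combination against DMSO it had the 76th highest, with 0.633% beyond it. The calls and directions of FLT3 and CSF1R held in all 3 comparisons under each of the 20 alternative settings. The summed level of the macrophage markers CD163, MRC1 and MARCO was 0.190 to 0.597 CPM in DMSO, 0.988 to 1.69 CPM in MI-503, and 1.70, 3.86 and 5.84 CPM in combination replicates 1, 2 and 4. Of these 3 only MARCO passed the filter on low counts, CD163 overlapped between DMSO and MI-503, and MRC1 had no count in either. The part of such cells in the level of CSF1R was not tested.

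The balance within class III therefore shifted, with FLT3 still the main receptor transcript. CSF1R made up 1.71, 2.28, 1.88 and 1.78% of the summed FPKM of the 4 class III receptors in DMSO, and 12.5, 12.6, 13.2 and 13.2% in MI-503. In the combination the share was 18.7, 22.4 and 25.0%. The share of FLT3 went from 97.9 ± 0.303% (SD, n = 4) to 86.7 ± 0.356% (n = 4) and 77.6 ± 3.02% (n = 3). The 3 groups did not overlap in either share. The sum itself averaged 79.1 FPKM in DMSO, 63.4 FPKM in MI-503 and 59.3 FPKM in the combination, so the gain of CSF1R was smaller in FPKM than the loss of FLT3. As a ratio, CSF1R stood at 0.0174 to 0.0234 of the FPKM of FLT3 in DMSO, 0.144 to 0.152 in MI-503 and 0.232 to 0.334 in the combination.

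**Figure D2:**
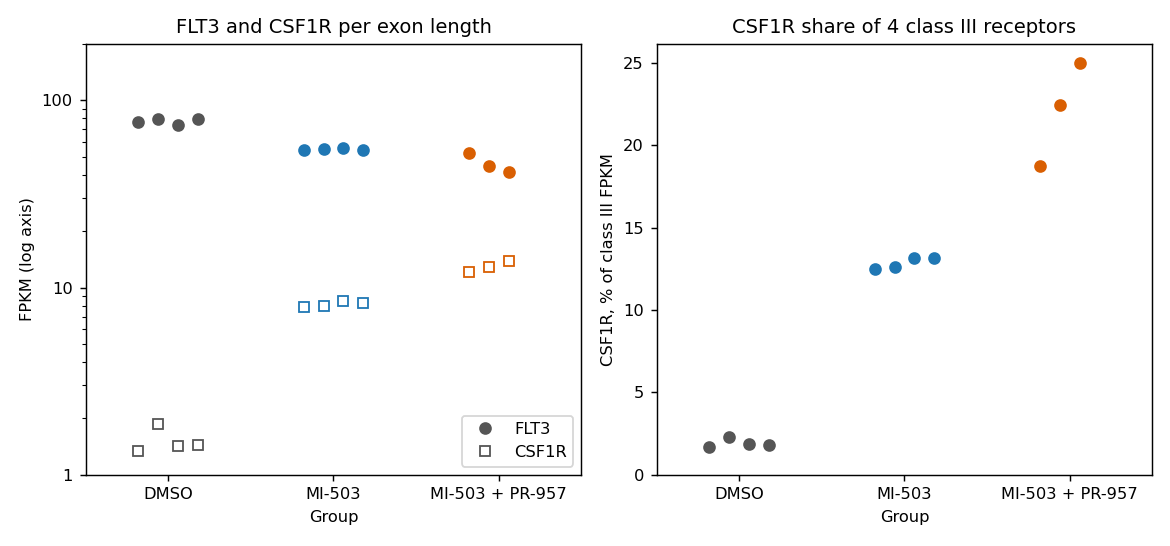
Left, FPKM of FLT3 (filled circles) and CSF1R (open squares) in each library on a log axis. Right, the share of CSF1R in the summed FPKM of FLT3, KIT, CSF1R and PDGFRB in each library, at most 2.28% in DMSO, 12.5 to 13.2% in MI-503 and 18.7 to 25.0% in the combination.

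KIT, the receptor of stem cell factor, was scarce in MOLM-13. Its raw counts were 11, 14, 7 and 7 fragments in DMSO, 26, 30, 38 and 23 in MI-503, and 34, 10 and 14 in the combination. On the CPM scale this was 0.371, 0.643, 0.332 and 0.332 CPM in DMSO, 1.20, 0.872, 1.57 and 0.942 CPM in MI-503, and 0.803, 0.502 and 0.521 CPM in the combination. Every MI-503 library lay above every other library, and DMSO replicate 2 lay inside the range of the combination. KIT rose with MI-503 (log2 fold change 1.43, SE 0.29, edgeR adjusted p = 6.25e-04). The rise was also called without the filter on low counts. KIT passed that filter through its level in the treated libraries, since too few of the DMSO libraries reached it. It was lower in the combination than in MI-503 (-0.82, SE 0.28, adjusted p = 0.0238) and did not pass the test against DMSO there (0.60, SE 0.34, adjusted p = 0.128). The fall from MI-503 missed the threshold without MI-503 replicate 3 (-0.63, adjusted p = 0.0859), combination replicate 2 (-0.76, 0.0615) or combination replicate 4 (-0.75, 0.0627), and the difference from DMSO passed it without DMSO replicate 2 (0.87, 0.0445). Over the alternatives the adjusted p ranged from 0.00758 to 0.0859 against MI-503 and from 0.0445 to 0.524 against DMSO. The 4 mast cell markers (TPSAB1, TPSB2, CPA3 and MS4A2) had a summed level of 0.0475 to 0.285 CPM in DMSO, 1.80 to 1.99 CPM in MI-503 and 1.32 to 2.31 CPM in the combination. CPA3 was at 0 in all 11 libraries. The one that was tested, MS4A2, averaged 0.179 CPM in DMSO, 1.80 CPM in MI-503 and 0.991 CPM in the combination. It was called higher with MI-503 (3.27, adjusted p = 3.50e-08) and lower in the combination than in MI-503 (-0.85, adjusted p = 0.00220), under all 20 alternatives. MS4A2 too was tested through its level in the treated libraries. TPSAB1 and TPSB2 did not pass the filter on low counts and went the other way between MI-503 and the combination. They averaged 0.0188 and 0.0480 CPM in MI-503 and 0.226 and 0.701 CPM in the combination, without overlap. The part of such cells in the level of KIT was not tested.

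PDGFRB, the mesenchymal member, had 5, 10, 10 and 7 fragments in DMSO, 13, 22, 6 and 7 in MI-503, and 57, 11 and 10 in the combination. Combination replicate 1 was at 1.35 CPM, and all other libraries lay between 0.169 and 0.639 CPM. PDGFRB did not pass the test with MI-503 (log2 fold change 0.39, SE 0.50, edgeR adjusted p = 0.538). It was called higher in the combination than in DMSO (1.25, SE 0.46, adjusted p = 0.0256), although the groups overlapped. Without combination replicate 1 that difference was 0.40 (adjusted p = 0.482), and it also missed the threshold without DMSO replicate 1 (0.96, adjusted p = 0.0969) or DMSO replicate 4 (1.23, 0.0520). Over the alternatives the adjusted p ranged from 8.81e-04 to 0.482. Against MI-503 it was 0.86 (SE 0.43, adjusted p = 0.111). That difference was called without combination replicate 4 (1.14, 0.0257) and was -0.04 (0.949) without combination replicate 1, the range over the alternatives being 0.0257 to 0.949.

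Among the TAM receptors AXL and TYRO3 were measured well and MERTK was near the limit of detection. AXL, a TAM receptor often described in drug-resistant leukemia, held 5.77, 7.03, 6.31 and 6.69 CPM in DMSO and 9.35, 9.62, 10.5 and 9.17 CPM in MI-503. In the combination it held 14.0 CPM in replicate 1 but 6.37 and 5.10 CPM in replicates 2 and 4. The MI-503 libraries all lay above the DMSO libraries, and the combination libraries lay on both sides of MI-503. AXL rose with MI-503 (log2 fold change 0.59, SE 0.22, edgeR adjusted p = 0.0342). It did not pass the test in the combination against DMSO (0.46, SE 0.24, adjusted p = 0.0994) or against MI-503 (-0.13, SE 0.23, adjusted p = 0.661).

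The result on AXL turned on combination replicate 1, also through the spread that all groups share in the model. Without it, AXL was higher in MI-503 than in DMSO by 0.64 (SE 0.09, adjusted p = 3.49e-06) and lower in the combination than in MI-503 by -0.80 (SE 0.12, adjusted p = 6.55e-06), and the combination differed from DMSO by -0.16 (SE 0.13, adjusted p = 0.278). With all combination libraries kept, the rise in MI-503 missed the threshold when any 1 of the MI-503 replicates 1 to 4 was left out (adjusted p = 0.0557, 0.0607, 0.0785 and 0.05). It also missed it without DMSO replicate 1 (0.0954), replicate 3 (0.0730) or replicate 4 (0.0595). In these fits the log2 fold change stayed between 0.53 and 0.61. AXL was called higher in the combination than in DMSO without replicate 2 (0.61, adjusted p = 0.0406) or replicate 4 (0.73, adjusted p = 0.00270), which leaves replicate 1 as 1 of 2 libraries. Over all alternatives the adjusted p ranged from 6.88e-08 to 0.0954 for MI-503 against DMSO, 5.58e-05 to 0.301 for the combination against DMSO, and 6.55e-06 to 0.958 against MI-503.

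TYRO3, the TAM receptor best known from the nervous system, was nearly the same in 10 of the 11 libraries. It held 10.2, 10.2, 10.8 and 10.2 CPM in DMSO, 10.1, 10.0, 10.4 and 10.1 CPM in MI-503, and 10.4 and 10.2 CPM in combination replicates 2 and 4. Combination replicate 1 stood at 16.7 CPM. With MI-503 the log2 fold change was -0.02 (SE 0.13, edgeR adjusted p = 0.917), and its sign turned under other scalings. The combination differed from DMSO by 0.30 (SE 0.13, adjusted p = 0.0600) and from MI-503 by 0.32 (SE 0.13, adjusted p = 0.0585). Without replicate 1 these differences were 0.02 (adjusted p = 0.884) and -0.01 (0.937). They passed the threshold without replicate 2 (0.40, adjusted p = 0.0169, and 0.39, 0.0300) or replicate 4 (0.43, 0.00610, and 0.41, 0.0112), and the ranges over the alternatives were 0.00333 to 0.884 and 0.00461 to 0.937. Of 848 windows of 100 bases along the exons of TYRO3, 2 (0.236%) recurred elsewhere on the chromosomes with at most 2 mismatches, so few of its reads could be lost to other sites. No window of the other 9 members recurred.

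MERTK, the TAM receptor of macrophages, had 1, 0, 1 and 0 fragments in DMSO, 0, 4, 1 and 3 in MI-503, and 4, 8 and 4 in the combination. It was the only member outside the filter on low counts, and a library at 0 allows up to 3 fragments, or 0.0729 to 0.159 CPM across the depths here. Summed over a group, 16 fragments in the combination against 2 in DMSO gave a depth-scaled ratio of 8.97 (95% exact interval 2.11 to 80.5, counting error only). All 3 combination libraries lay above all DMSO libraries, at 0.0944, 0.401 and 0.149 CPM against at most 0.0474 CPM. An exact permutation test over libraries, two-sided and 1 of 3 run for MERTK, gave p = 0.0571, the smallest that 3 libraries against 4 allow. The same exact permutation test gave p = 0.257 for MI-503 against DMSO (smallest possible 0.0286) and p = 0.171 for the combination against MI-503. Without the filter the edgeR adjusted p of the combination against DMSO was 0.00654, with values of 0.303 for MI-503 against DMSO and 0.219 for the combination against MI-503. MERTK had its highest level in combination replicate 2, not in replicate 1, unlike AXL and TYRO3.

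GAS6, the ligand of all TAM receptors, had the highest FPKM of the members and rose with MI-503. It held 216.7, 243.8, 230.4 and 198.3 CPM in DMSO, 294.4, 299.1, 287.9 and 277.6 CPM in MI-503, and 277.9, 365.4 and 393.1 CPM in the combination. All MI-503 and combination libraries lay above all DMSO libraries, while combination replicate 1 lay within the MI-503 range. The log2 fold change was 0.38 (SE 0.08, edgeR adjusted p = 9.52e-04) with MI-503 and 0.63 (SE 0.09, adjusted p = 7.38e-06) in the combination against DMSO, and both calls held under all 20 alternatives. Against MI-503 the combination was higher by 0.25 (SE 0.09, adjusted p = 0.0268). Without combination replicate 1 that difference was 0.36 (adjusted p = 1.63e-05). It missed the threshold without combination replicate 2 (0.17, adjusted p = 0.198), or combination replicate 4 (0.11, 0.323), and without replicate 3 (0.25, 0.0547) or 4 (0.23, 0.0672) of MI-503, within a range of 7.46e-06 to 0.323 over the alternatives. The FPKM of GAS6 was 38.3 times the summed FPKM of the TAM receptors in DMSO and 38.9 times in MI-503. In combination replicates 1, 2 and 4 it was 24.7, 60.5 and 76.0 times. These ratios also depend on the annotated exon bases.

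CSF1, a ligand of CSF1R, and FLT3LG, the ligand of FLT3, stood far below their receptors in FPKM. CSF1 had 17, 9, 8 and 19 fragments in DMSO, 23, 38, 35 and 34 in MI-503, and 59, 11 and 21 in the combination. On the CPM scale its range was 0.379 to 0.902 in DMSO and 1.06 to 1.45 in MI-503. The combination libraries had 1.39, 0.552 and 0.781 CPM, so that only replicate 1 reached the MI-503 range. CSF1 rose with MI-503 (log2 fold change 1.13, SE 0.31, edgeR adjusted p = 0.00512), a call that held under all 20 alternatives. Like KIT, CSF1 passed the filter on low counts through its level in the treated libraries. In the combination it was called against DMSO (0.78, SE 0.33, adjusted p = 0.0479) but not against MI-503 (-0.35, SE 0.29, adjusted p = 0.341). Without combination replicate 1 these were 0.28 (adjusted p = 0.510) and -0.89 (0.0212), so that the second and not the first was called. The call against DMSO was also lost without DMSO replicate 1 (0.0859), replicate 2 (0.112) or replicate 3 (0.125) and without any 1 of the MI-503 replicates 1 to 4 (0.0556, 0.0556, 0.0553 and 0.0569), over a range of 0.0155 to 0.510, and against MI-503 the range was 0.0212 to 0.638.

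FLT3LG held 3.38, 2.94, 3.23 and 2.61 CPM in DMSO, 2.31, 3.66, 2.93 and 3.19 CPM in MI-503, and 3.64, 3.26 and 3.09 CPM in the combination. The 3 groups overlapped throughout. Its log2 fold changes were 0.01 (SE 0.15, edgeR adjusted p = 0.981) for MI-503 against DMSO, 0.13 (SE 0.16, adjusted p = 0.465) for the combination against DMSO and 0.13 (SE 0.15, adjusted p = 0.516) for the combination against MI-503. None of the 20 alternatives called it in any comparison.

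Across the members, 6 of the 9 tested were called with MI-503 against DMSO: CSF1R, KIT, CSF1, AXL and GAS6 rose, and FLT3 fell. Of all 14683 tested genes 51.4% were called in that comparison, 22.0% higher and 29.3% lower, so a call as such was common. The same 6 members had no overlap between the groups, which held for 50.3% of all tested genes. The median log2 fold change was 0.39 over the 9 members and -0.03 over all tested genes. CSF1R, KIT and CSF1 were called more than 2-fold higher, and 4.22% of all genes were. KIT and CSF1 passed the filter on low counts through the treated libraries, where they are high. A fall could hardly be called in such genes, so no conclusion is drawn from this count or from the member median. In the combination against DMSO, CSF1R, PDGFRB, CSF1 and GAS6 were called higher and FLT3 lower, 5 of 9 beside a background of 64.5% (31.7% higher, 32.8% lower), and CSF1R and PDGFRB were more than 2-fold higher, beside 8.54% of all genes. Of these, FLT3, CSF1R and GAS6 did not overlap between the groups, beside 60.5% of all genes, and the medians were 0.60 over the members and 0.01 over all genes. The number of members called was 3 without DMSO replicate 1 or without combination replicate 1, and 7 without combination replicate 2 or 4. In the combination against MI-503, CSF1R and GAS6 were higher and FLT3 and KIT lower, 4 of 9 beside a background of 47.4% (23.6% higher, 23.8% lower). FLT3, CSF1R and KIT did not overlap there, beside 47.6% of all genes, and the medians were 0.13 and 0.00. The number of members called against MI-503 was 2 without MI-503 replicate 3 and 6 without combination replicate 1. The 3 comparisons share their DMSO, MI-503 or combination libraries pairwise and are not independent of each other.

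**Figure D3:**
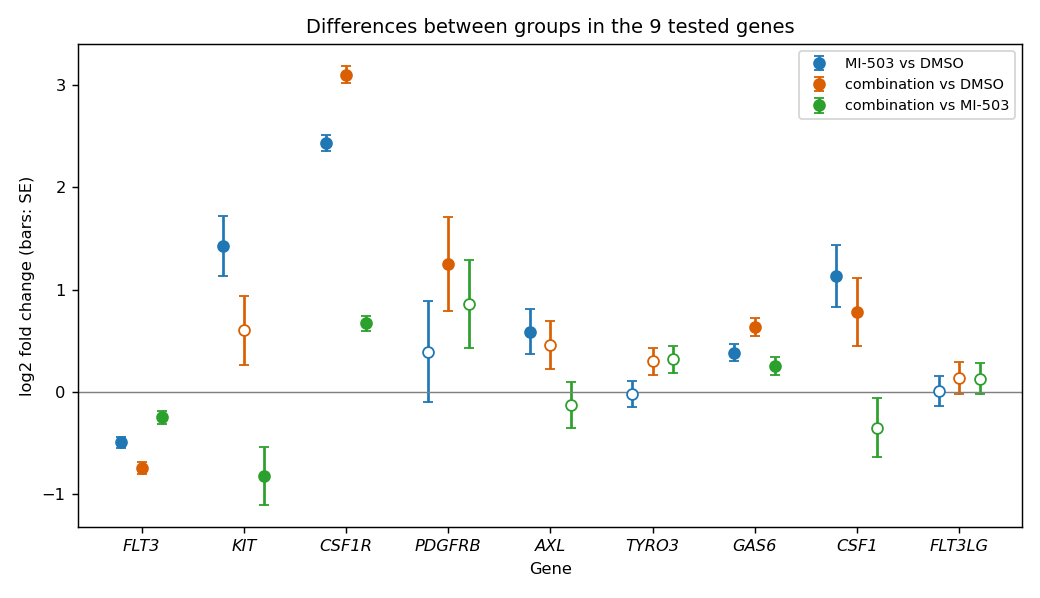
Fitted log2 fold change of each of the 9 tested members with its standard error, in the 3 comparisons. Filled points passed an edgeR adjusted p of 0.05 and open points did not. CSF1R lies highest in both comparisons against DMSO and FLT3 lies below 0 in all 3.

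Combination replicate 1 differed from replicates 2 and 4 by amounts that can be read against all genes averaging 5 CPM or more. It held 2.43 times the mean AXL level of the other 2, and 0.129% of 10041 such genes were further from theirs. For TYRO3 the ratio was 1.62, with 1.22% of genes further out, and for GAS6 0.733, with 5.25%. FLT3 (1.22, 16.2% further out) and CSF1R (0.907, 45.3%) were not unusual among all genes. Of the members below 5 CPM, PDGFRB was at 2.91 times, CSF1 at 2.09 times, KIT at 1.57 times and FLT3LG at 1.15 times the mean of the other 2, and MERTK was at 0.343 times. The 5 fibroblast markers (COL1A1, COL1A2, COL3A1, DCN and LUM) summed to 1.13 CPM in it and to 0.853 and 0.781 CPM in replicates 2 and 4. They summed to 0.270 to 0.827 CPM in DMSO and 0.378 to 0.578 CPM in MI-503. The one that was tested, COL1A1, was called higher in the combination than in DMSO (log2 fold change 1.17, edgeR adjusted p = 0.00808), without overlap. Against MI-503 it was also higher (1.13, adjusted p = 0.0123), again without overlap. DCN lay higher there without overlap too, LUM overlapped and averaged lower, and COL1A2 and COL3A1 were at 0 in all 3 combination libraries. The part of any such cells in the levels of AXL and PDGFRB was not tested.

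**Figure D4:**
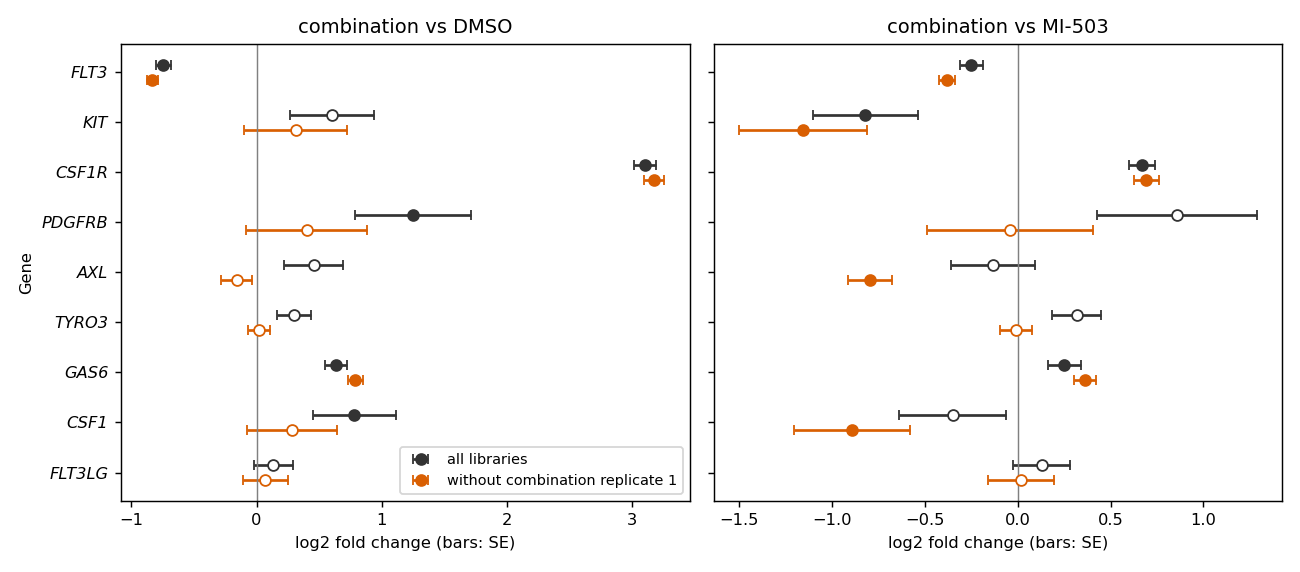
Log2 fold change of each tested member with all 3 combination libraries and without replicate 1, for the combination against DMSO (left) and against MI-503 (right), with standard errors and filled points for an edgeR adjusted p under 0.05. AXL, TYRO3, PDGFRB and CSF1 move to lower values when the library is left out, AXL to -0.16 and -0.80, and CSF1R moves least in relation to its size.

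The genes that act beside these receptors were described from 4 lists. Of 8 other genes of the 2 families (PDGFRA, KITLG, IL34, the PDGF ligands and PROS1), 4 were tested. PDGFC, a PDGF ligand, was the only one called with MI-503, at 9.15 CPM in DMSO and 12.7 CPM in MI-503 (log2 fold change 0.47, edgeR adjusted p = 0.00177). PDGFA, another PDGF ligand, which shares 8.14% of its exon bases with HRAT92, did not pass the test (-0.12, adjusted p = 0.268). In the combination against MI-503, PROS1, which encodes protein S, rose from 10.1 to 14.4 CPM (0.51, adjusted p = 4.54e-04) and PDGFC fell to 9.87 CPM (-0.34, adjusted p = 0.0244). The groups overlapped in PDGFC, and its call was lost without MI-503 replicate 1 (-0.29, 0.0698), MI-503 replicate 2 (-0.32, 0.0587) or combination replicate 2 (-0.25, 0.0691), over a range of 8.29e-05 to 0.0698. Without combination replicate 1, 2 genes of the list were lower in that comparison. In the combination against DMSO, PROS1 was higher (0.38, adjusted p = 0.00286) and PDGFA lower (-0.25, adjusted p = 0.0360). PDGFA overlapped between the groups, and its call was lost without DMSO replicate 1 (-0.22, 0.0905), DMSO replicate 4 (-0.24, 0.0667), combination replicate 2 (-0.23, 0.0839) or combination replicate 4 (-0.13, 0.201), over a range of 4.39e-04 to 0.201. The calls of PROS1 held under all 20 alternatives. Of all tested genes, 51.4% were called with MI-503, 64.5% in the combination against DMSO and 47.4% in the combination against MI-503.

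All 22 adaptors and effectors were tested, from GRB2 and SHC1 to the PI3K, phospholipase C gamma, STAT and SRC family genes. With MI-503, 9 were called higher and 6 lower (median log2 fold change 0.07), beside 22.0% and 29.3% of all genes. GAB3, an adaptor known for its role downstream of CSF1R, rose from 6.37 to 10.9 CPM (0.77, edgeR adjusted p = 2.27e-06). In the combination 6 were higher and 4 lower than in DMSO (median 0.02), beside 31.7% and 32.8% of all genes. Against MI-503, 6 were higher and 5 lower (median -0.01), beside 23.6% and 23.8%. The number higher was 2 without combination replicate 2, and the number lower was 2 without MI-503 replicate 2 and 3 without MI-503 replicate 3. Without combination replicate 1, 7 were higher and 4 lower than in DMSO, and 5 higher and 5 lower than in MI-503. PTPN11, which encodes the phosphatase SHP2, was lower than in MI-503, at 234 CPM against 273 CPM (-0.23, adjusted p = 4.70e-04).

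Of 12 genes for negative regulators of these receptors, 11 were tested, and with MI-503 8 were called higher and 1 lower (median log2 fold change 0.25), beside 22.0% and 29.3% of all genes. The one that fell was UBASH3B, a phosphatase that acts on receptor tyrosine kinases and SYK, from 100.2 to 62.8 CPM (-0.67, edgeR adjusted p = 2.91e-07). SLA, an adaptor that promotes receptor turnover, rose from 38.4 to 54.0 CPM (0.49, adjusted p = 4.02e-06). In the combination against DMSO 7 were higher and 1 lower (median 0.36), beside 31.7% and 32.8% of all genes. Against MI-503 they were split, 4 higher and 4 lower (median 0.11), beside 23.6% and 23.8%. Without combination replicate 1 these counts were 7 and 2 against DMSO and 3 and 4 against MI-503, and without combination replicate 2 the number higher than in MI-503 was 2. SLA went back to 39.0 CPM (-0.47, adjusted p = 1.98e-05), and DOK1, an adaptor that restrains RAS signaling, rose from 41.1 to 66.7 CPM (0.70, adjusted p = 4.06e-08).

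The 6 cleavage enzyme genes encode ADAM10, ADAM17 and subunits of gamma-secretase, which release the outer part of several of these receptors. None was called with MI-503 by edgeR (median 0.03), beside 51.4% of all tested genes. None had an unadjusted p under 0.05 and none was called by DESeq2 or limma-voom. NCSTN differed by 0.09 there (edgeR adjusted p = 0.0909) and ADAM10 by 0.06 (adjusted p = 0.244). Both were called without combination replicate 1 (0.14, 0.00359, and 0.11, 0.0260) or replicate 2 (0.13, 0.0306, and 0.10, 0.0443), and NCSTN without replicate 4 (0.13, 0.00689). In the combination 3 were higher, among them ADAM17 and NCSTN, and ADAM10 was lower in each comparison (ADAM17 being named after its values were seen), with medians of 0.13 against DMSO and 0.14 against MI-503. Beside these stand 31.7% higher and 32.8% lower of all genes against DMSO and 23.6% and 23.8% against MI-503, and without combination replicate 1 the number higher was 4 in each. Against MI-503, ADAM10 stood at 98.3 CPM against 127 CPM (-0.37, adjusted p = 1.11e-05). ADAM17 shares 24.1% of its exon bases with IAH1, so its level rests on the other bases.

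The genes whose profile over the 11 libraries was most like that of a member were found by the root mean square difference of mean-centered log2 CPM among the 10041 genes averaging 5 CPM or more. For FLT3 these were SHMT2 (0.05), NUDCD1 (0.05) and DDX10 (0.05), against a spread of 0.32 of FLT3 around its own mean. For CSF1R they were JUN (0.17), RAB37 (0.18) and CACNA1E (0.19), against its own 1.34. JUN, for example, averaged 2.90 CPM in DMSO, 17.3 CPM in MI-503 and 22.4 CPM in the combination. For GAS6 they were SLC39A13 (0.05), CXCR4 (0.05) and NAGK (0.06), against 0.29. AXL had METTL7A (0.15), PTMS (0.19) and CALHM2 (0.20) as its nearest genes, against 0.42, and TYRO3 had PHLDB1 (0.06), TMEM135 (0.10) and USP30 (0.10), against 0.20. Both AXL and TYRO3 had their highest level in combination replicate 1.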

How the data were processed

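RNA from MOLM-13 cells (poly(A) RNA, TruSeq kit, read pairs, NovaSeq) was measured in 11 libraries, grouped by their labels. The deposited unit is raw counts of fragments per gene. Per the file headers and the submitters' processing notes, the authors trimmed reads with Trimmomatic 0.39, aligned them with STAR 2.7.10a and counted exons of the hg38 RefSeq annotation with featureCounts 2.0.1 without regard to strand, which leaves out fragments shared by several genes or sites and so lowers overlapping genes. The headers also mark the alignments as filtered, and for that filter the rule was not found in the labels or methods. The joined table differed from the single tables in 0 cells. The authors' deposited tables of fold changes and p-values from DESeq2 were not used.

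The tools were edgeR 4.0.16, DESeq2 1.42.0 and limma 3.58.1 under R 4.3.3, and scipy 1.17.1, pandas 2.3.3, numpy 2.4.6 and matplotlib 3.10.9 under Python 3.11.15. Of 38557 genes, 11740 had no count and 14683 passed edgeR's filterByExpr, set to a minimum total of 15, a minimum count of 10 and a large n of 10. A single model of group means was fitted to all 11 libraries with TMM factors of 0.956 to 1.06, a common dispersion of 0.00378 and 8 residual degrees of freedom. Contrasts were tested two-sided by the quasi-likelihood method of edgeR, and p-values were adjusted after Benjamini-Hochberg across the 14683 genes, with a threshold of 0.05. The procedure was checked on simulated counts. CPM are TMM-scaled, log2 CPM used a prior count of 0.5, and FPKM divide CPM by all annotated exon bases. For MERTK, an exact permutation test on CPM was used. Windows of 100 exon bases, every 10 bases, were searched in hg38 with minimap2 2.31-r1302. Promoters came from RefSeq on GRCh38.p14: 9 of 10 members matched, with 13 starts, and CSF1 had no entry. Precision follows depth (18.9 to 41.2 M fragments) and replicate number.

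The members, lists and tests were chosen with earlier results of these data known. Named were all members, the 2 genes of each pathway list with the smallest adjusted p with MI-503 and on addition of PR-957, and the 3 genes nearest in profile to each member of at least 5 CPM; a few genes that this rule or the lists name are not reported here. Alternatives were RLE and upper-quartile scaling, no filter, a stricter filter (at least 1 CPM in at least 3 libraries), DESeq2, limma-voom, a fit of only the 2 groups compared, a replicate block, a threshold of 0.01 and leaving out each library.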

Additional observations from a re-analysis of the deposited data

Results flagged for a closer look

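In groups of 4 libraries, the highest and lowest CPM of each member were compared with the rest of their group (Dixon's test, at its 95% critical value for the gap over the range). Of 20 groups tested, 2 were set apart, and chance sets apart about 1 in 20. KIT stood at 0.643 CPM in DMSO replicate 2, above the other 3 DMSO libraries, on 14 fragments. TYRO3 stood at 10.8 CPM in DMSO replicate 3, where the other 3 lay within a narrow range of 10.2 CPM, so the gap is small in size. The group of 3 combination libraries was too small for this test, so its replicate 1 is described with the results alone.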

How the results depend on the processing

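Over 27 fold changes of members (9 genes in 3 comparisons), 534 alternative values were computed. Of these, 462 kept direction and side of the threshold, 38 fell below it, 16 passed it and 18 turned sign; 13 of the 27 changed in none. All turned signs belong to changes that were not called. TYRO3 with MI-503 (-0.02) turned to 0.0080 with RLE scaling, 0.043 with upper-quartile scaling, 0.00025 with no filter, 0.031 with the stricter filter, 0.0041 with DESeq2 and 0.029 with only the 2 groups compared, and leaving out 1 library gave -0.030 to 0.026. Leaving out 1 library also gave -0.11 to 0.11 for FLT3LG with MI-503, -0.16 to 0.73 for AXL and 0.02 to 0.43 for TYRO3 in the combination against DMSO, and -0.80 to 0.10 for AXL, -0.042 to 1.14 for PDGFRB and -0.0098 to 0.41 for TYRO3 against MI-503. Members called against DMSO in the combination numbered 5, but 8 with no filter, 3 with limma-voom and 3 at an adjusted p under 0.01, and 3 to 7 when 1 library was left out. Upper-quartile scaling gave 5 higher and 1 lower there. DESeq2 gave 3 higher and 1 lower, as did only the 2 groups compared. Against MI-503 the members called numbered 4, but 2 at an adjusted p under 0.01, and 2 to 6 when 1 library was left out. No filter gave 4 higher and 2 lower there, and the stricter filter 2 higher and 1 lower. With MI-503 the members called numbered 5 or 6 throughout. DESeq2 did not call AXL with MI-503 (adjusted p = 0.0737) nor PDGFRB (0.0742) or CSF1 (0.110) in the combination against DMSO, and limma-voom did not call the latter pair (0.0528 and 0.0606). CSF1 was not called there with only the 2 groups compared either (0.0760). TYRO3 passed there with upper-quartile scaling (0.0271) and the stricter filter (0.0384). With no filter, AXL (5.58e-05) and TYRO3 (0.00333) passed against DMSO, and PDGFRB (0.0298) and TYRO3 (0.00461) against MI-503; the cause was not tested. Among pathway genes, NCSTN passed with MI-503 under RLE scaling (0.0353), upper-quartile scaling (0.00542), the stricter filter (0.0113) and only the 2 groups compared (0.00110), ADAM10 under the last 3 (0.0241, 0.0365 and 0.00803), PDGFA was not called against DMSO under these 3 (0.134, 0.0659 and 0.0806), nor PDGFC against MI-503 with only the 2 groups (0.0523). KIT and PDGFRB have no value under the stricter filter. GAS6 in MI-503 was 121 FPKM over its unshared exon bases and 116 FPKM over all.

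The labels give the groups the same replicate numbers, but the deviations of same-numbered libraries from their group means correlated at -0.10 to 0.14 over 10 pairs, so the numbers were not taken as pairs. With a replicate block, members called numbered 6 with MI-503, 4 in the combination against DMSO and 3 against MI-503, CSF1 losing its call against DMSO (0.74, adjusted p = 0.0651) and KIT against MI-503 (-0.75, adjusted p = 0.0519). Depth limits KIT, PDGFRB, CSF1 and MERTK, at under 60 fragments in every library.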
